A study of Mus musculus with 18 samples.

Results

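The genes described here carry out and prepare the copying of DNA: 34 named genes of DNA replication and S phase. They were listed by name, with earlier results of these data known. Each was read from the probe set with the highest mean among those annotated to that gene alone. All 34 of the 34 listed genes were found among 12394 genes measured. Of them, 13 had 1 probe set, 15 had 2, 3 had 3, 2 had 4 and 1 had 5. The arrays measured RNA from mouse dendritic cells, the antigen-presenting cells of the immune system, grown from bone marrow with GM-CSF, a growth factor that drives marrow precursors to divide and then to become dendritic cells. Lipopolysaccharide (LPS), a cell wall component of bacteria, makes such cells mature.

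The 18 arrays covered 3 conditions of C57BL/6 background from mice of 6 to 8 weeks. The Cd14-deficient condition was Cd14-/- cells, which lack a surface protein that passes LPS to its receptor TLR4, given smooth LPS at a concentration the labels do not state. The EGTA condition was wild type cells given smooth LPS at 1 µg/ml with 2 mM EGTA, which binds extracellular calcium. The wild type condition was the same cells given 1 µg/ml LPS alone. Each condition had 1 array at each of 2, 4, 6, 12 and 24 h of LPS and 1 array without LPS, from cells plated for 24 h. Whether the unstimulated cells of the EGTA condition got EGTA is unclear, since their title has it and their protocol does not. All cultures were grown in medium conditioned by B16 tumour cells that secrete GM-CSF and were used when most cells carried CD11c. No label says how many mice or cultures stood behind an array.

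Median intensity per array ran between 77.9 and 126.7. The EGTA array without LPS differed from the others, with 3311 probe sets under an intensity of 16 against 4635 or more on every other array. RNA integrity numbers were 8.8 and 8.7 for the EGTA arrays at 12 and 24 h and 9.3 to 10 for all others. Cd14 followed the labels: its log2 level was 4.28 to 5.84 over the 6 Cd14-deficient arrays, 12.49 to 13.03 over the 6 EGTA arrays and 12.66 to 13.28 over the 6 wild type arrays. Itgax, which encodes CD11c, lay between 11.22 and 12.40 on all 18 arrays.

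A cell prepares to copy its DNA by loading the MCM helicase onto replication origins during G1 phase, with Cdc6 and Cdt1, and then by opening those origins as S phase begins. Primase and polymerase alpha start each new strand, the RFC complex places the PCNA clamp that holds the main polymerases on DNA, RPA coats the exposed single strands, and Fen1 and Lig1 finish the lagging strand. Ribonucleotide reductase, thymidylate synthase, thymidine kinase and dUTPase supply the nucleotides. Many of these genes are targets of E2F transcription factors, which the RB family holds back in cells that do not divide. Dendritic cell cultures from marrow hold dividing precursors, and maturing dendritic cells are known to leave the cell cycle.

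The promoters of some members carry the words that E2F factors bind, and those of 6 members that differ in their response to LPS are shown. RefSeq windows of 300 bases, from 250 before to 50 after a gene's start (build GRCm38.p6), were at hand for 28 of the 34 members. The words TTTCGCGC, TTTGGCGC, TTTCCCGC and TTTGCCGC were searched on both strands, as was CCAAT, the word bound by the factor NF-Y. The 200 bases before the start are printed 5′ to 3′ on the gene's strand. Capitals mark these words. Runs of 8 or more capitals are E2F words, which overlap each other in Mcm5 and in the first match of Mcm6, and runs of 5 are CCAAT or its reverse complement.
Mcm5 (chr8:75109309-75109508, plus strand): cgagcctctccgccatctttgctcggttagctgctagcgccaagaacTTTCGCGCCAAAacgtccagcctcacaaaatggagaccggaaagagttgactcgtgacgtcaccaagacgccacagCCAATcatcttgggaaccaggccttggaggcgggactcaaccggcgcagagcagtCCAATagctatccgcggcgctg
Mcm6 (chr1:128359706-128359905, minus strand): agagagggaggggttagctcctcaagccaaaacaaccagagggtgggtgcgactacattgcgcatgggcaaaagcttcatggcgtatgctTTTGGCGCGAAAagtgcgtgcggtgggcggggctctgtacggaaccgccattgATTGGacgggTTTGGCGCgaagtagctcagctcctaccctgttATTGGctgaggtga
Mcm7 (chr5:138171884-138172083, minus strand): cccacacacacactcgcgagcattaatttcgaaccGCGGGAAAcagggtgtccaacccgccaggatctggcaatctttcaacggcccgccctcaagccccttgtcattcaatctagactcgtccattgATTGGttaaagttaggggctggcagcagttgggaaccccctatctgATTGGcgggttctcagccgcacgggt
Pola1 (chrX:93632156-93632355, minus strand): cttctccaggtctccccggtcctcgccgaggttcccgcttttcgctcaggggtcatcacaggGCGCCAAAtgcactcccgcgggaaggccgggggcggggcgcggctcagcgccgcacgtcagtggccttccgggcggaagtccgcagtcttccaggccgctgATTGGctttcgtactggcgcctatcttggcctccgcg
Rrm2 (chr12:24708054-24708253, plus strand): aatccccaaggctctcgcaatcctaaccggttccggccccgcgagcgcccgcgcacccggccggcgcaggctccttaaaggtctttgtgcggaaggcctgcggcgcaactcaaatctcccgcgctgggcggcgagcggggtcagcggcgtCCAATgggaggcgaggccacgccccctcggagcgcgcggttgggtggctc
Asf1a (chr10:53596761-53596960, plus strand): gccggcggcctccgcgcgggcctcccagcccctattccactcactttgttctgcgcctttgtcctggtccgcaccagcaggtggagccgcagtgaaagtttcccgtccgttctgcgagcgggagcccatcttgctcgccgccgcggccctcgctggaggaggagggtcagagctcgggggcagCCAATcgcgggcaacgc

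An E2F word was present in 10 of the 33 windows of members (30.3%) and in 744 of the 32851 windows of all genes in the table (2.26%). The 10 members with a word were Mcm3, Mcm5, Mcm6, Mcm7, Cdc6, Cdt1, Pola1, Rfc3, Lig1 and Uhrf1. CCAAT was present in 54.5% of members' windows and in 37.4% of all windows. The words TTTGAA and TTCGAA of the cell cycle homology region, searched likewise, were present in 12.1% of members' windows and in 19.2% of all. Rrm2, a member with one of the deepest falls below, and Asf1a, which rose, have no E2F word in the windows searched, which says only that these letters are not there.

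Without LPS the members lay well above the middle of the array, and LPS lowered most of them in all 3 conditions. The median log2 level of the 34 members at 0, 2, 4, 6, 12 and 24 h was 8.76, 8.12, 7.48, 7.47, 7.72 and 7.48 in Cd14-deficient cells. In EGTA cells it was 8.39, 7.80, 7.58, 7.79, 7.88 and 7.32, and in wild type cells 8.48, 7.78, 7.41, 7.65, 7.94 and 7.16. The median of all genes stayed between 7.02 and 7.08 on these arrays. In every condition this median was lower at 2 h than without LPS, lower again at 4 h, higher at 12 h than at 4 h, and lower at 24 h than at 12 h. In bulk RNA, fewer dividing cells and less of these RNAs per cell cannot be told apart. For LPS cells the time from plating to stimulation is not stated, so an effect of time in culture and one of LPS cannot be told apart in these contrasts.

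**Figure D1:**
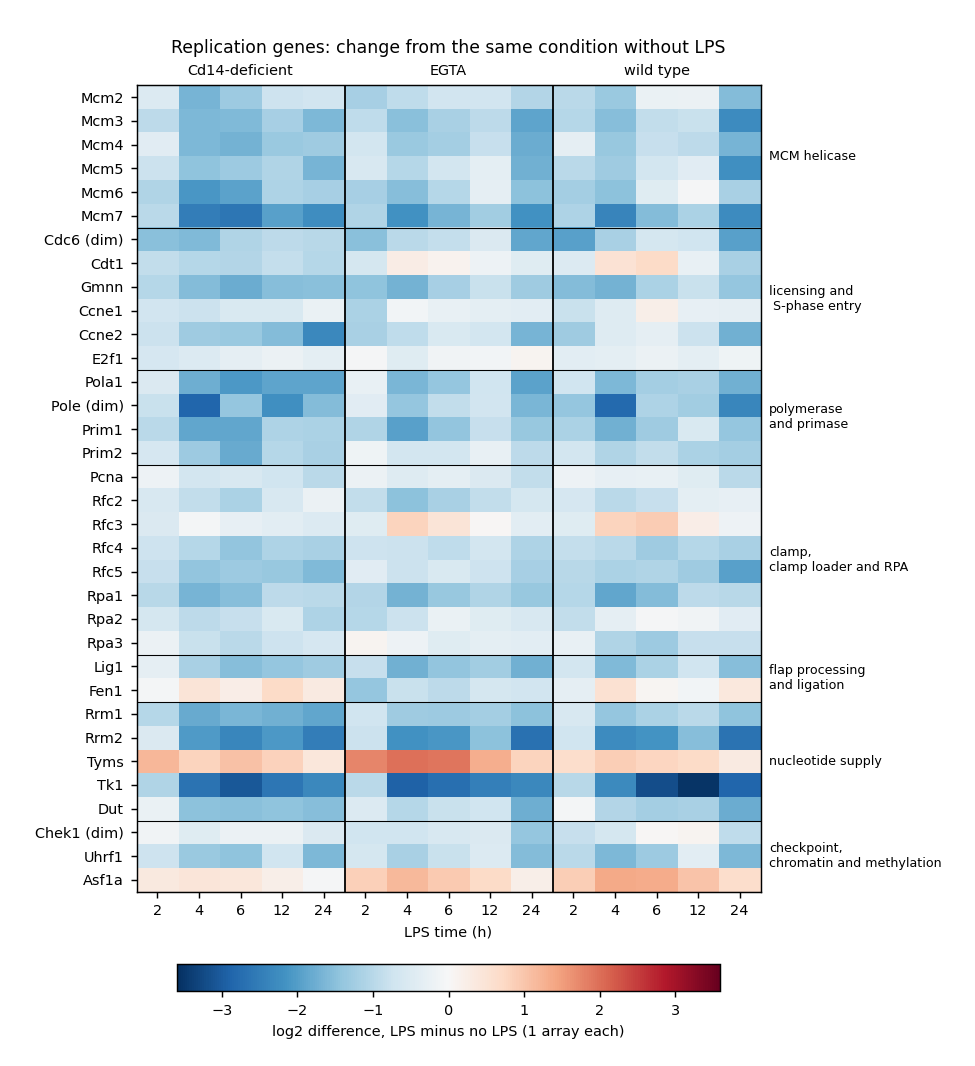
Change of each of the 34 members from the unstimulated array of its own condition (log2 LPS minus no LPS, 1 array each; blue lower, red higher) at 2, 4, 6, 12 and 24 h in Cd14-deficient, EGTA and wild type cells, in groups by role. At 4 h, 31 members were lower in Cd14-deficient cells, 30 with EGTA and 29 in wild type cells. Of all tested genes 53.5%, 56.2% and 57.2% were lower there. The word "dim" marks the 3 members tested in no comparison.

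The fall was tested with limma across all genes, with the 3 conditions as the replicates of a time, and a gene was called when its adjusted p was under 0.05. Of the members, 31 were bright enough to be tested against unstimulated cells, all but Pole, Cdc6 and Chek1. At 2 h 21 of 31 members were called lower, where 25.0% of all tested genes were, and 2 were called higher, against 16.4%. At 4 h 25 were called lower (background 35.2%) and 3 higher (25.6%). At 6 h 23 were lower (33.9%) and 2 higher (26.1%), and at 12 h 21 were lower (29.5%) and 2 higher (27.1%). At 24 h 25 were lower, against 25.7% of all tested genes, and 0 were higher, against 26.4%. At 24 h 26 members had an unadjusted p under 0.05 in either direction by the same tool. The median change of tested members was -0.74, -1.18, -1.12, -0.81 and -1.28 at 2, 4, 6, 12 and 24 h, beside -0.09, -0.08, -0.06, -0.01 and 0.01 for all tested genes. Dim members could be tested through their unstimulated arrays alone, so the counts were also taken with no filter: 28 of all 34 members were then called lower at 4 h and 28 at 24 h.

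The MCM genes encode the subunits of the replicative helicase. All 6 fell at 4 h and at 24 h, by a median of 1.5 and 1.72 on the log2 scale, and at 12 h 4 of 6 were called lower. Mcm7 had log2 levels of 11.02, 10.06, 8.53, 8.41, 9.07 and 8.78 at 0, 2, 4, 6, 12 and 24 h in Cd14-deficient cells. In EGTA cells it had 10.56, 9.47, 8.38, 8.88, 9.30 and 8.39, and in wild type cells 10.57, 9.45, 8.21, 9.01, 9.42 and 8.31. Every LPS array was below every unstimulated array. Its change was -2.35 ± 0.19 at 4 h (SE, limma adjusted p = 7.09e-08) and -2.22 ± 0.19 at 24 h (1.73e-07).

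Mcm6 was close to its unstimulated level at 12 h in wild type and EGTA cells, but not in Cd14-deficient cells. It had 10.62, 9.55, 8.52, 8.69, 9.52 and 9.42 in Cd14-deficient cells over the same times. With EGTA it had 10.20, 9.01, 8.68, 9.18, 9.87 and 8.73, and in wild type cells 10.20, 8.98, 8.73, 9.77, 10.17 and 9.04. At 12 h the wild type array was within 0.03 of its unstimulated value, while at 6 h Cd14-deficient cells were still 1.07 below wild type cells. The change was -1.70 ± 0.24 at 4 h (adjusted p = 2.47e-05), -0.49 ± 0.24 at 12 h (0.103) and -1.28 ± 0.24 at 24 h (0.000446).

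The other MCM genes fell at 4 h by 1.25 (Mcm5) to 1.55 (Mcm3) and at 24 h by 1.10 (Mcm2) to 1.94 (Mcm3). Mcm2, Mcm4, Mcm6 and Mcm7 had other probe sets that moved the same way at 4 h. One of the 5 probe sets of Mcm3, with the lowest mean of them, changed by 0.05 at 4 h, and the other 4 by -0.93 to -1.55.

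Of the genes of licensing and entry into S phase, Gmnn, the inhibitor of Cdt1, fell at all 5 times, by 1.66 ± 0.19 at 4 h (adjusted p = 3.05e-06). Ccne1 and Ccne2 encode cyclin E, which drives the start of S phase. Ccne2 fell by 1.90 ± 0.24 at 24 h (adjusted p = 1.02e-05). Ccne1 was called at 2 h alone, at -0.88 ± 0.20 (0.00236), and at 4 and 24 h it stood at -0.45 ± 0.20 (0.0591) and -0.32 ± 0.20 (0.188). E2f1, the best known of the activating E2F factors, changed little on the probe set used, by -0.43 ± 0.13 at 4 h (0.00903) and -0.12 ± 0.13 at 24 h (0.44). Its second probe set moved by -0.81 and -0.17. Cdc6, which helps to load the helicase, was dim and untested, with log2 levels of 6.99, 7.11 and 6.95 in unstimulated Cd14-deficient, EGTA and wild type cells and 5.00 to 6.57 under LPS.

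Cdt1, the partner of Cdc6 in loading the helicase, did not follow the course of Gmnn in EGTA and wild type cells. Cdt1 had 9.66, 8.77, 8.64, 8.60, 8.80 and 8.65 at 0, 2, 4, 6, 12 and 24 h in Cd14-deficient cells. In EGTA cells it had 9.54, 8.90, 9.82, 9.68, 9.35 and 9.10, and in wild type cells 9.47, 8.98, 9.98, 10.15, 9.21 and 8.29. At 4 and 6 h it thus stood above its unstimulated value in EGTA and wild type cells and about a full log2 unit below it in Cd14-deficient cells. Over the 3 conditions the change was -0.08 ± 0.29 at 4 h (adjusted p = 0.831) and -0.88 ± 0.29 at 24 h (0.0188). Its second probe set moved by -0.09 and -1.04.

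Polymerase alpha and primase lay down the primers of new strands. Pola1, the catalytic subunit of polymerase alpha, had 8.10, 7.57, 6.34, 6.02, 6.21 and 6.2 in Cd14-deficient cells, 7.69, 7.42, 6.05, 6.30, 6.97 and 5.75 in EGTA cells and 7.80, 7.08, 6.19, 6.59, 6.63 and 6.07 in wild type cells. Its change was -1.67 ± 0.22 at 4 h (adjusted p = 1.21e-05). Pola1 lay above the array's median only on the unstimulated and 2 h arrays. It was thus tested only through arrays on which it is high. Prim1 and Prim2, the primase subunits, fell at 4 h by 1.85 ± 0.15 and 1.02 ± 0.20. Pole, the leading strand polymerase, was dim and untested, with 7.52, 6.33 and 7.06 in unstimulated Cd14-deficient, EGTA and wild type cells and 4.26 to 6.72 under LPS.

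Pcna, the sliding clamp, was bright on every array and fell by less than the helicase genes. It had 12.71, 12.53, 12.03, 12.13, 11.98 and 11.75 in Cd14-deficient cells, 12.56, 12.37, 12.09, 12.22, 12.06 and 11.66 in EGTA cells and 12.59, 12.43, 12.29, 12.32, 12.16 and 11.62 in wild type cells. Its change was -0.48 ± 0.07 at 4 h (adjusted p = 5.12e-05) and -0.94 ± 0.07 at 24 h (6.91e-08). With arrays centred on their medians in place of quantile normalisation the 4 h change was -0.03 (adjusted p = 0.821), so the call at 4 h depends on the scaling.

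The clamp loader and the RPA subunits split in their response. Rfc2, Rfc4 and Rfc5 fell at 4 h by 0.92 to 1.12, while Rfc3, a small subunit of the same loader, rose by 0.51 ± 0.19 (adjusted p = 0.0292). Rfc3 had 8.04, 7.53, 7.97, 7.74, 7.67 and 7.54 at 0, 2, 4, 6, 12 and 24 h in Cd14-deficient cells. With EGTA it had 7.88, 7.43, 8.69, 8.34, 7.93 and 7.49, and in wild type cells 7.72, 7.28, 8.52, 8.65, 7.95 and 7.54. The rise at 4 and 6 h was seen in EGTA and wild type cells, and Cd14-deficient cells stood at or below their unstimulated level at all 5 times. Its second probe set moved by 0.84 at 4 h, and the call at 4 h was lost without any of 4 arrays, the unstimulated and 4 h arrays of EGTA and of wild type cells. Without further scaling it was 0.08 (0.762), where the median of all genes was -0.40.

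Rpa1, the large subunit of the complex that coats single strands, was lower at all 5 times and fell by 1.75 ± 0.10 at 4 h (adjusted p = 1.44e-09) and 1.11 ± 0.10 at 24 h (2.83e-07). Rpa2 and Rpa3, the smaller subunits, fell by 0.68 ± 0.18 and 0.69 ± 0.13 at 4 h. Lig1, the ligase that joins lagging strand fragments, fell by 1.5 ± 0.18 at 4 h and 1.52 ± 0.18 at 24 h.

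Fen1, the nuclease that trims those fragments, could not be given a direction, since its probe sets disagreed. The brighter one, which the rule uses, changed by 0.07 ± 0.22 at 4 h (adjusted p = 0.806) and 0.00 at 24 h (0.992), and the other by -1.23 and -1.55. The used probe set had 9.58, 10.68 and 9.76 in unstimulated Cd14-deficient, EGTA and wild type cells, so the unstimulated EGTA array, which stands apart in its dim probe sets, was also high for Fen1.

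Among the genes of nucleotide supply were the deepest falls. Rrm2, the subunit that limits ribonucleotide reductase in S phase, had 11.17, 10.64, 9.13, 8.81, 9.09 and 8.68 at 0, 2, 4, 6, 12 and 24 h in Cd14-deficient cells. In EGTA cells it had 10.49, 9.71, 8.30, 8.40, 9.0 and 7.80, and in wild type cells 10.54, 9.83, 8.28, 8.41, 9.02 and 7.88. From 4 h on, every array was more than a log2 unit below the unstimulated array of its condition. The change was -2.16 ± 0.14 at 4 h (adjusted p = 5.06e-09) and -2.61 ± 0.14 at 24 h (9.06e-10), and its other 2 probe sets moved by -1.87 and -2.21 at 4 h.

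Rrm1, the large subunit, fell by 1.49 ± 0.11 at 4 h (adjusted p = 2.48e-08) and 1.60 ± 0.11 at 24 h (1.45e-08). Dut, which keeps uracil out of DNA, fell by 1.18 ± 0.19 at 4 h and fell by 1.69 ± 0.19 at 24 h. Tk1, the thymidine kinase of dividing cells, had 8.44, 7.37, 5.78, 5.38, 5.83 and 6.12 in Cd14-deficient cells, 7.82, 6.86, 4.91, 5.10, 5.35 and 5.51 in EGTA cells and 7.76, 6.77, 5.46, 4.57, 4.22 and 4.90 in wild type cells. From 4 h on it lay below the median gene of every array, where a log2 difference understates the fold. It was above the median on the 3 unstimulated arrays and the Cd14-deficient array at 2 h, and so was tested only through arrays on which it is high, and its size depends on the processing, with -3.87 to -1.92 at 6 h under the alternatives.

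Tyms, thymidylate synthase, had too dim a probe set to be given a direction. Its log2 level was 5.66, 5.18 and 5.70 in unstimulated Cd14-deficient, EGTA and wild type cells, and 6.45, 7.15 and 6.59 at 4 h. It was above the array's median only on the EGTA arrays at 4 and 6 h, and so was tested only through arrays on which it is high. It is among the calls counted as higher at 2 to 12 h, while its other 2 probe sets moved by 0.46 and -0.22 at 4 h.

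**Figure D2:**
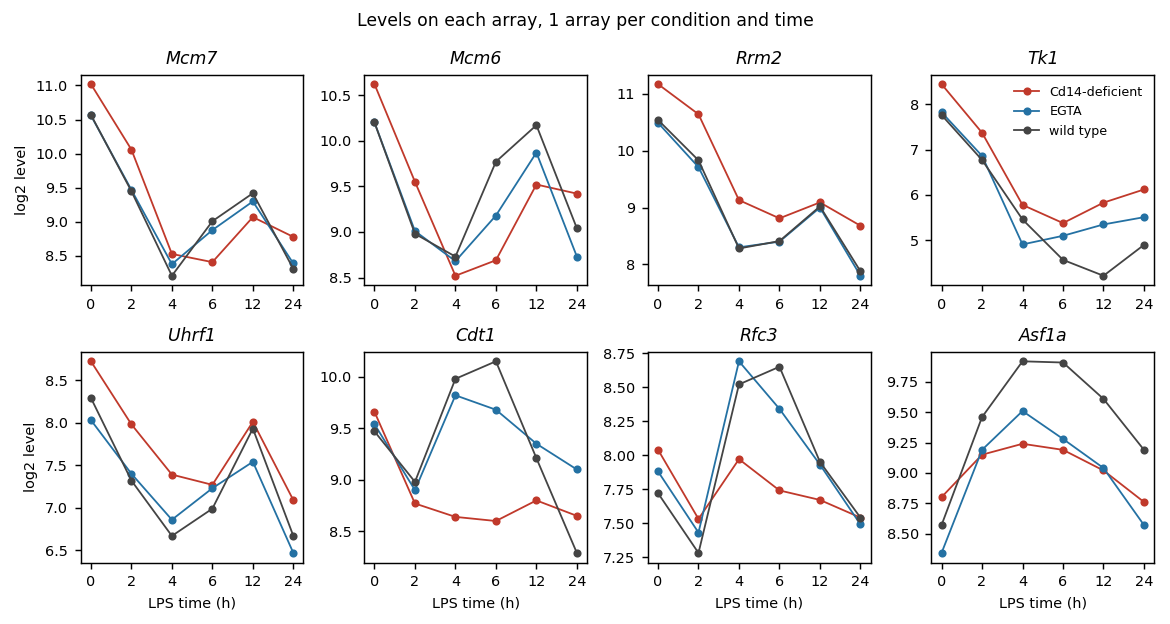
Log2 level of 8 members (1 point per array) at 0, 2, 4, 6, 12 and 24 h of LPS in Cd14-deficient (red), EGTA (blue) and wild type (grey) cells; times are evenly spaced and each panel has its own range. Mcm7, Rrm2, Tk1 and Uhrf1 dropped by 4 h in all 3 conditions, Cdt1 and Rfc3 were higher at 4 and 6 h with EGTA and in wild type cells than in Cd14-deficient cells, and Asf1a was higher under LPS than without it in wild type and EGTA cells.

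Of the genes of checkpoint and chromatin, Uhrf1, which recruits the maintenance DNA methyltransferase behind the fork, had 8.72, 7.98, 7.39, 7.27, 8.01 and 7.09 in Cd14-deficient cells. With EGTA it had 8.03, 7.40, 6.86, 7.23, 7.54 and 6.47, and in wild type cells 8.29, 7.32, 6.67, 6.99, 7.93 and 6.67. It was low at 4 h, nearer its unstimulated level at 12 h and low again at 24 h in all 3 conditions, with changes of -1.37 ± 0.14 (adjusted p = 1.03e-06), -0.52 ± 0.14 (0.00602) and -1.60 ± 0.14 (2.66e-07). Chek1, the kinase that halts damaged forks, was dim and untested, with 5.95 to 7.32 over all 18 arrays.

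Asf1a, a histone chaperone that hands histones to new DNA, rose. It had 8.80, 9.15, 9.24, 9.19, 9.02 and 8.76 at 0, 2, 4, 6, 12 and 24 h in Cd14-deficient cells. In EGTA cells it had 8.34, 9.19, 9.51, 9.28, 9.04 and 8.57, and in wild type cells 8.57, 9.46, 9.92, 9.91, 9.61 and 9.19. All 12 arrays at 2 to 12 h were above the unstimulated array of their condition. The change was 0.99 ± 0.14 at 4 h (adjusted p = 2.61e-05) and 0.27 ± 0.14 at 24 h (0.129). A second, dim probe set changed by -0.04 at 4 h.

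Between LPS times many members fell, a few rose and then many fell. These comparisons of neighbouring times were chosen after the values were seen, and they use no unstimulated array. From 2 to 4 h 16 of 30 tested members were called lower, where 21.9% of all tested genes were, and 3 were called higher, against 21.4%. These were Rfc3, Asf1a and the brighter probe set of Fen1, and the calls of Asf1a and Fen1 were lost when probe sets were averaged. Pola1, among the 16 lower, was tested only through its 2 h arrays, on which it is high. With no filter 16 of all 34 members were called lower. From 6 to 12 h 5 were called higher, against 8.86% of all tested genes, and 0 lower, against 7.09%, while 11 had an unadjusted p under 0.05 in either direction by limma. From 12 to 24 h 11 were called lower, against 9.11%, and 0 higher, against 10.1%, while 18 had an unadjusted p under 0.05.

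The 5 that rose from 6 to 12 h were Rpa1, by 0.50 ± 0.10 (adjusted p = 0.00795), Uhrf1, by 0.66 ± 0.15 (0.0107), Rfc2, by 0.44 ± 0.10 (0.0123), Prim1, by 0.68 ± 0.16 (0.0141) and Rrm2, by 0.50 ± 0.15 (0.038). Each was higher in 3 of 3 conditions. This small set hung on few arrays: 1 member was called without the Cd14-deficient array at 6 h, 2 without the wild type array at 12 h and 3 without the EGTA arrays at 12 and 24 h, which had the lowest RNA integrity. Without condition as a block 0 were called. Mcm6 stood at 0.64 ± 0.25 (0.0964) and Mcm7 at 0.50 ± 0.20 (0.104).

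From 12 to 24 h Mcm5 fell by 1.26 ± 0.19 (adjusted p = 0.00101), Uhrf1 by 1.08 ± 0.15 (0.000642), Mcm3 by 0.96 ± 0.18 (0.00333), Ccne2 by 0.92 ± 0.25 (0.0222) and Rrm2 by 0.91 ± 0.15 (0.00162). Mcm6, Mcm7, Pcna, Rrm1, Rfc5 and Asf1a fell as well, by 0.29 to 0.79. All 11 were lower in 3 of 3 conditions. The count was 5 or 6 without any of 4 arrays, those of wild type and EGTA cells at 12 and 24 h, and 5 without both of these EGTA arrays.

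Over the whole course, the mean of 12 and 24 h minus the mean of 2, 4 and 6 h was lower for 9 of 30 members, where 24.0% of all tested genes were lower, and higher for 5, where 33.0% were. Those lower were Pcna, at -0.40 ± 0.05 (adjusted p = 1.89e-05), Dut, Rrm1, Rrm2, Rfc3, Rfc5, Ccne2, Asf1a and Tyms, the last tested only through 2 early arrays. Those higher were Rfc2, at 0.46 ± 0.07 (6.71e-05), Mcm6, Prim1, Rpa1 and the brighter probe set of Fen1, which gives the gene no direction: averaged over both probe sets the value was -0.04 (0.529), and 9 of 15 refits without an array lost the call. The call of Mcm6 was lost in 7 of these 15. The share lower was near the background.

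Genes of mitosis, 32 listed and 30 measured, among them Ccna2, Ccnb2 and Ube2c, were mostly lower under LPS on the same arrays too. At 24 h 26 of 28 tested were called lower than without LPS (background 25.7%) and 0 higher (26.4%), with a median of -2.17. Late times were lower than early ones for 25 of 27 (background 24.0%). From 6 to 12 h 0 were called higher (background 8.86%) and 10 lower (7.09%), where 5 replication genes were called higher and 0 lower. Ube2c, which helps the cell leave mitosis, had 10.79, 10.39, 9.78, 9.67, 8.59 and 7.60 in Cd14-deficient cells, 9.65, 9.19, 8.11, 7.92, 7.24 and 6.32 in EGTA cells and 9.67, 9.15, 8.13, 7.93, 7.00 and 6.24 in wild type cells. It was lower at every later time, whereas the median of the replication genes was higher at 12 h than at 4 h. The difference between the lists was not tested.

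**Figure D3:**
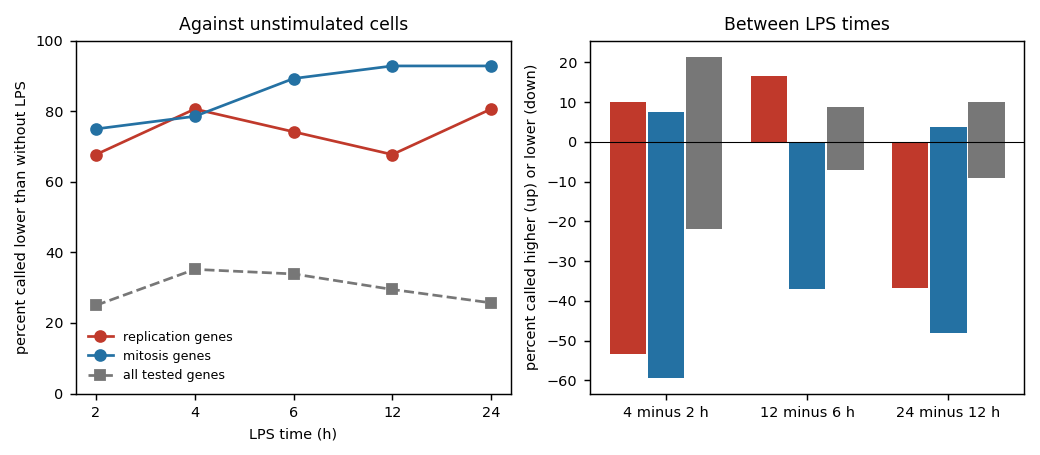
Left, percent of tested replication genes (red), mitosis genes (blue) and all genes (grey) called lower than without LPS at each time. Right, percent called higher (above 0) or lower (below 0) between LPS times; from 6 to 12 h the replication genes have calls above 0 alone and the mitosis genes below 0 alone.

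Markers of granulocytes and their dividing precursors were read on the same arrays, and most tested ones were called lower than without LPS from 6 h on. Bulk RNA does not show which cells made it. Of 14 listed markers 12 were measured and 11 tested. At 24 h 10 were called lower than without LPS (background 25.7%) and 1 higher (26.4%), with a median of -2.07. At 2, 4, 6 and 12 h their median change was -0.08, -0.4, -0.67 and -1.15. Their summed normalised intensity was 18700 to 31400 over the LPS arrays of Cd14-deficient cells, 8590 to 32200 of EGTA cells and 11000 to 27900 of wild type cells, against 33300, 34100 and 33400 without LPS. Elane, Prtn3, Ms4a3 and Camp, made by precursors, had log2 levels of 7.04 to 9.71 in unstimulated cells. Mpo and Ctsg, of the same list, had 6.68 to 7.57. Cxcr2 was near the floor of the scale, at 4.58 to 5.63 over all arrays. Lcn2 was higher at 24 h than without LPS, at 12.81 against 10.76 in wild type cells. At 2 h 0 of the granulocyte and precursor markers were called higher (background 16.4%) and 1 lower (25.0%). Of 6 listed progenitor markers 3 were tested, with median changes of -0.55, -2.01, -2.7, -2.4 and -1.25 at 2, 4, 6, 12 and 24 h. At 4 h 6 of 10 tested macrophage markers were lower (background 35.2%) and 1 higher (25.6%). Of 12 tested dendritic cell markers 5 were lower and 5 higher at 4 h. The part of all these markers in the falls of the members, early or late, was not tested.

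Many other genes of the replication machinery fell as well. The list of 39 holds origin recognition, GINS, polymerase delta and fork protection genes, and 29 were tested. At 4 h 19 were called lower, against 35.2% of all tested genes, and 2 higher, against 25.6%. At 24 h 18 were lower (background 25.7%) and 4 higher (26.4%). Timeless, a fork protection gene, was higher at 4 h than without LPS, at 8.23 against 6.69 in wild type cells. Pold1, the catalytic subunit of polymerase delta, fell by 1.34 ± 0.14 at 4 h, and Asf1b, the proliferation-linked relative of Asf1a, by 1.89 ± 0.19 at 24 h. At 4 h, where Asf1a rose, Asf1b was at 8.30, 7.43 and 7.36 in Cd14-deficient, EGTA and wild type cells. Without LPS Asf1b had 9.16, 8.71 and 8.47. Asf1a and Asf1b thus went opposite ways at 4 h, while at 24 h Asf1a stood at 0.27 and was not called. Of 10 tested genes of replication stress and repair 7 were lower at 24 h (background 25.7%) and 0 higher (26.4%). Among those lower were Brca1, by 1.3 ± 0.25, and Rad51ap1, by 1.66 ± 0.24.

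Among the regulators of G1 phase the direction was mixed: of 22 tested genes 12 were lower (background 25.7%) and 4 higher (26.4%) at 24 h. Ccnd2, which encodes cyclin D2, rose by 2.02 ± 0.11 at 4 h (adjusted p = 7.93e-10), while Cdk4, its kinase partner, fell by 1.53 ± 0.12 (3.34e-08). E2f5, which encodes a repressing E2F factor, rose by 1.91 ± 0.16 (7.05e-08), and Cdkn2b, an inhibitor of Cdk4, by 2.06 ± 0.19 at 24 h (2.95e-07). Of 17 tested genes of nucleotide synthesis 10 were lower at 24 h (background 25.7%) and 5 higher (26.4%). Samhd1, which breaks down the nucleotides that ribonucleotide reductase helps to make, rose by 0.98 ± 0.11 at 4 h (1.75e-06).

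For the conditions the 15 LPS arrays were used, with the 5 times as replicates. Between Cd14-deficient and wild type cells 9 of 30 tested members were called, where 29.7% of all tested genes were, so the members' share did not stand out. Of them 6 were higher in Cd14-deficient cells (background 17.1%) and 3 lower (12.6%), and the median difference was 0.07 beside 0.04 for all tested genes. With the deposited values left without further scaling, 1 was higher and 3 lower, and of all called genes 22.1% were higher, in place of 57.6%. Of the 6 members higher, Rrm2 alone kept its call there. Without time as a block 0 of the 9 were called.

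Both ribonucleotide reductase genes were higher in Cd14-deficient cells. Rrm2 had, as above, 10.64, 9.13, 8.81, 9.09 and 8.68 under LPS at 2 to 24 h in Cd14-deficient cells, against 9.83, 8.28, 8.41, 9.02 and 7.88 in wild type cells, a difference of 0.59 ± 0.11 (adjusted p = 0.00222). Rrm1 had 9.55, 8.76, 8.91, 8.85 and 8.69 in Cd14-deficient cells, against 9.17, 8.36, 8.60, 8.76 and 8.28 in wild type cells, a difference of 0.32 ± 0.07 (0.00332). Each was higher at 5 of 5 times, with the smallest gap at 12 h. Without LPS Rrm1 was also higher, at 10.57 against 9.74.

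Rfc4, a subunit of the clamp loader, had 7.85, 7.56, 7.17, 7.49 and 7.42 in Cd14-deficient cells, against 7.30, 7.21, 6.89, 7.13 and 7.00 in wild type cells, a difference of 0.39 ± 0.09 (adjusted p = 0.00594). Rpa3 had 8.87, 8.27, 8.08, 8.31 and 8.47 in Cd14-deficient cells, against 8.60, 7.78, 7.56, 8.05 and 8.03 in wild type cells, a difference of 0.40 ± 0.08 (0.00375). Rpa1 differed by 0.29 ± 0.08 (0.0155) and Uhrf1 by 0.43 ± 0.11 (0.0128). All 4 were higher at 5 of 5 times. The Rpa1 call was lost without the wild type array at 4 or at 6 h or without all arrays at 4 h, and that of Uhrf1 without all arrays at 2 or at 4 h. Averaged with its dim second probe set, which stood at -0.27, Uhrf1 differed by 0.08 and was not called.

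Asf1a was lower in both Cd14-deficient and EGTA cells than in wild type cells. Over the LPS arrays it ran from 8.76 to 9.24 in Cd14-deficient cells and from 8.57 to 9.51 in EGTA cells, against 9.19 to 9.92 in wild type cells. The difference from wild type was -0.55 ± 0.08 for Cd14-deficient cells (adjusted p = 0.000241) and -0.50 ± 0.08 for EGTA cells (0.00116), each lower at 5 of 5 times. These comparisons share the wild type arrays. Both calls held without any single array or time, and both were lost when the dim second probe set was averaged in and without time as a block.

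Cdt1 differed between Cd14-deficient and wild type cells by -0.63 ± 0.22 (adjusted p = 0.0439), lower at 4 of 5 times. The gap was -1.34 and -1.55 at 4 and 6 h, and at 24 h it was 0.36. E2f1 differed by -0.28 ± 0.10 (0.0479), with 6.79, 6.91, 7.08, 7.18 and 7.06 in Cd14-deficient cells, against 7.20, 7.21, 7.37, 7.21 and 7.43 in wild type cells. Both calls were close to the threshold and were lost in 13 and 17 of 20 refits that left out an array or a time. Rfc3, with gaps of -0.55 at 4 h and -0.91 at 6 h, stood at -0.30 ± 0.14 over all times (0.122). Rbl1, an RB family repressor that is no member, had 9.33, 10.32 and 9.92 at 4 h in Cd14-deficient, EGTA and wild type cells, and over the LPS times it differed by -0.61 ± 0.14 between Cd14-deficient and EGTA cells (adjusted p = 0.00557).

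Between EGTA and wild type cells Asf1a was the only member called of 30, where 13.6% of all tested genes were called and 6.22% called lower, and 4 members had an unadjusted p under 0.05. E2f1 stood at -0.24 ± 0.10 (adjusted p = 0.123), Tyms at 0.37 ± 0.14 (0.114) and Mcm2 at 0.44 ± 0.23 (0.237). Cd14-deficient minus EGTA cells gave 6 members called (background 31.3%): Rrm2, at 0.63 ± 0.11 (0.00141), Rrm1, at 0.44 ± 0.07 (0.000324), Uhrf1, Rpa3 and Rpa1 were higher and Cdt1, at -0.68 ± 0.22 (0.0302), was lower. Without further scaling 1 was higher and 3 lower, with 12.1% of all called genes higher in place of 53.8%, and without time as a block 0 were called. Without the EGTA arrays at 12 and 24 h 2 were called, and 3 without either of them.

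**Figure D4:**
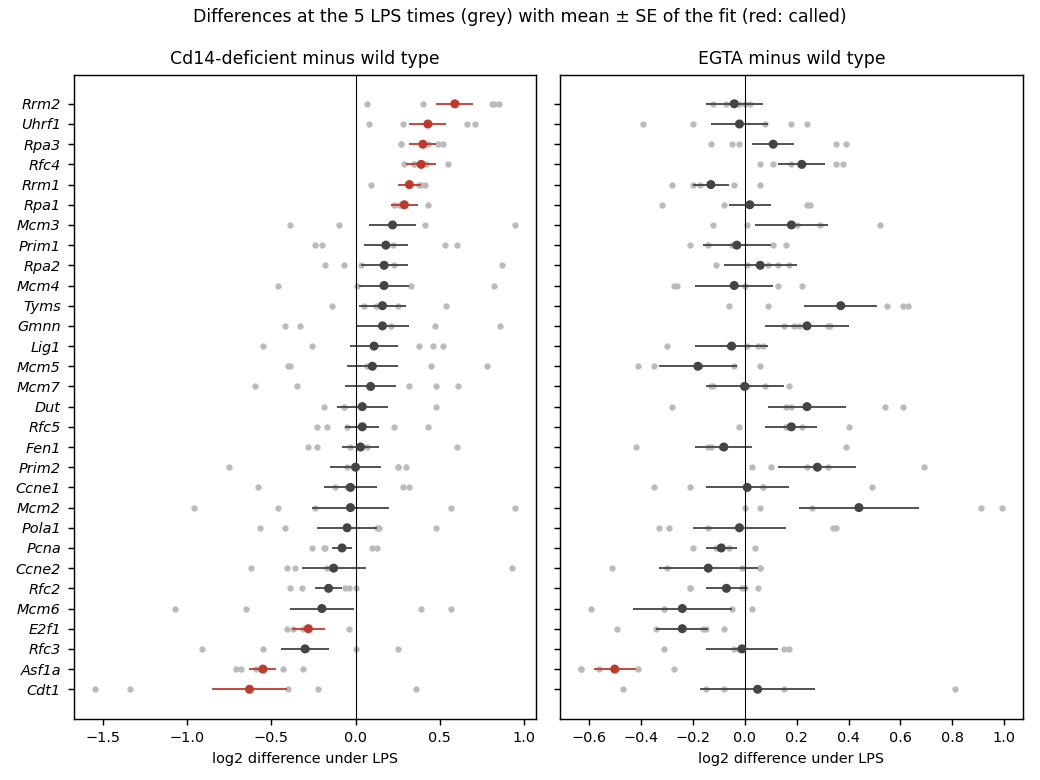
Log2 difference from wild type of the 30 tested members under LPS, for Cd14-deficient cells (left) and EGTA cells (right). Grey points are the 5 LPS times, larger points with bars the mean ± SE of the fit, and red marks a member called: 9 for Cd14-deficient cells and 1 for EGTA cells.

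The mean over times hid a change of direction in Cd14-deficient cells, which is described here without a test since it was noticed in the values. Cd14-deficient minus wild type, 30 of 34 members were higher at 0 h (median 0.24) and 30 at 2 h (0.46). At 4 h 18 were higher (0.05), at 6 h 9 (-0.27) and at 12 h 12 (-0.11). At 24 h 29 were higher again (0.40). Of all tested genes 47.0% to 56.4% were higher at these times. EGTA minus wild type, 12 to 22 of 34 were higher, with medians from -0.08 to 0.10. The 34 members lie on the same pair of arrays at each time, so they are not separate measurements of a condition.

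The MCM genes showed this course together. Mcm3 was 0.31, 0.41, 0.21, -0.39, -0.10 and 0.95 above or below wild type at 0, 2, 4, 6, 12 and 24 h in Cd14-deficient cells. Mcm2 was at 0.09, 0.57, -0.24, -0.96, -0.46 and 0.95, and Mcm6 at 0.42, 0.57, -0.20, -1.07, -0.65 and 0.39. All 6 were higher at 0, 2 and 24 h and lower at 6 h. Pola1, Prim1, Gmnn and Lig1 were likewise higher at 2 and 24 h and lower at 6 h. Rrm1, Rrm2, Rfc4, Rpa1, Rpa3, Uhrf1 and Tk1 were higher at all 6 times, and Tk1, too dim to test over the LPS arrays, differed by 0.60, 0.32, 0.81, 1.61 and 1.22 at 2 to 24 h.

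**Figure D5:**
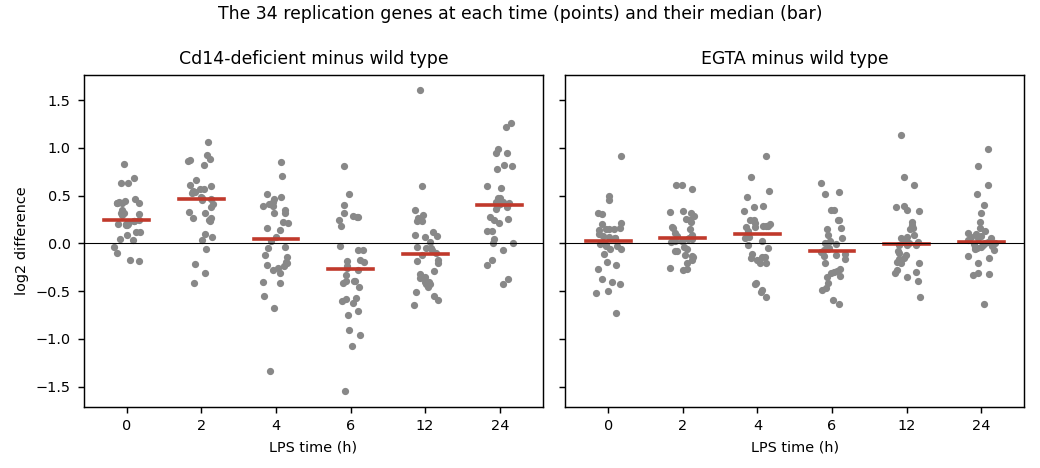
Log2 difference from wild type of each of the 34 members (points) at each time, for Cd14-deficient cells (left) and EGTA cells (right), with the median as a bar. The Cd14-deficient median is 0.24 and 0.46 at 0 and 2 h, -0.27 at 6 h and 0.40 at 24 h, and the EGTA median stays between -0.08 and 0.10.

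The tests of a difference between conditions in the response called no member. Late minus early times in the Cd14-deficient difference gave 0 of 30 members (0.0433% of all tested genes were called) and in the EGTA difference 0 (background 0%), with 1 and 3 members at an unadjusted limma p under 0.05. That contrast pools 2, 4 and 6 h, over which the Cd14-deficient difference changed sign. The change with LPS in Cd14-deficient cells against that in wild type cells gave 0 of 31 (0.156%), and that in EGTA cells 0 (1.66%), with 2 and 4 members at an unadjusted p under 0.05. In simulated data the induction test recovered 36.1% of changes of 0.75 and 83.5% of changes of 1.5, so differences of the smaller size could be missed.

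Most mitosis genes were higher in Cd14-deficient cells. Of 27 tested, 24 were called higher in Cd14-deficient than in wild type cells and 0 lower, with a median of 0.79, and EGTA cells had 1 higher and 1 lower. Ube2c differed by 1.52 ± 0.09 (adjusted p = 1.93e-07). Without LPS the mitosis genes named above were also higher, Ube2c at 10.79 against 9.67, Ccnb2 at 10.15 against 8.82 and Ccna2 at 10.12 against 9.17. Late minus early, the Cd14-deficient difference of the 27 had a median of -0.54. There 0 were called, and 17 had an unadjusted limma p under 0.05. Of 27 tested genes on the list of other replication genes only 2 were higher, where 17.1% of all tested genes were, and 0 lower, against 12.6%. The 2 higher were Dna2, a nuclease and helicase of the lagging strand, at 1.11 ± 0.13 (9.16e-05), and Dbf4, which activates the kinase that fires origins, at 0.31 ± 0.08 (0.0111). Dna2 was also higher with EGTA, at 0.44 ± 0.13 (0.049).

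Cell type markers also differed between Cd14-deficient and wild type cells under LPS. Of the 11 tested granulocyte and precursor markers 6 were higher than in wild type cells (background 17.1%) and 0 lower (12.6%), with a median of 0.55. Elane differed by 0.74 ± 0.16 (adjusted p = 0.00396), Ms4a3 by 0.85 ± 0.12 (0.000268) and Camp by 1.53 ± 0.16 (3.36e-05). Without LPS they were also higher, Elane at 8.40 against 8.01, Ms4a3 at 8.27 against 7.04 and Camp at 9.71 against 8.71. Ltf, of the same list, was then at 9.43 against 9.67. Against the same background, of 10 tested macrophage markers 7 were lower and 1 higher, and of 12 tested dendritic cell markers 5 were higher and 0 lower. Summed macrophage marker intensity was 20800 to 30100 over the LPS arrays of Cd14-deficient cells, against 28500 to 33800 in wild type cells, and that of dendritic cell markers 38900 to 44700 against 35600 to 38600. Without LPS these sums were 35300 against 38700 for macrophage markers and 36800 against 32800 for dendritic cell markers. Cd163, of the macrophage list, was near the floor of the scale, at 4.11 to 5.44 over all arrays. Their part in the differences of the members was not tested.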

How the data were processed

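RNA of 18 samples was hybridised to 1 Affymetrix array each. The deposited values are linear intensity values of 22690 probe sets, made by the authors with MAS5, per the submitters' processing notes. The MAS5 version and target intensity: not given in the sources used here. From these values quantile-normalised log2(intensity + 16) was computed, which understates the change of dim genes. Of the probe sets 20393 had 1 gene in the platform annotation, 691 several and 1606 none. A gene was read from its brightest probe set of 1 gene, giving 12394 genes. A gene was tested if it lay above the array's median gene on at least 2 fitted arrays, giving 6929 tested genes for fits of the 15 LPS arrays and 7056 for fits of all 18.

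Tests used limma 3.58.1 in R 4.3.3 (lmFit, then eBayes with an intensity trend), with Benjamini-Hochberg adjustment over all tested genes at 0.05. Conditions were compared over the LPS arrays with LPS time as a block, so times served as replicates, and times with condition as a block, so conditions served as replicates. These blocks come from the design, since no condition and time was measured again. In the induction tests a lone unstimulated array was assumed to vary like the others. Errors are standard errors of the fit. As no label says that arrays came from separate cultures, p-values reflect only how these arrays vary, possibly for technical reasons, and precision is bounded by how few arrays there are. The steps were tested on simulated data: at a change of 0.75, 92.0% were recovered in the comparison of Cd14-deficient with wild type cells and 72.7% in that of 24 h of LPS with none.

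All 34 members are named, and of other genes Cd14 and, per pathway list, up to 4 with the smallest p in a comparison. Named beside this rule, after their values were seen, were Itgax and the other cell type markers. The members and all lists were chosen with earlier results of these data known. Alternatives varied the scaling, the added constant, the filter, the probe set rule, the trend, the block and the arrays included. The comparisons of neighbouring LPS times, with their alternatives, were added after the data were seen. Figures were drawn with matplotlib 3.10.9.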

Additional observations from a re-analysis of the deposited data

Results flagged for a closer look

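Of 60 sets of 5 values (the Cd14-deficient and the EGTA difference from wild type of each of the 30 tested members at the 5 LPS times), 2 held a value far from the other 4, and chance gives such a value in about 1 set in 20. Ccne2 was 0.93 higher in Cd14-deficient than in wild type cells at 2 h, where its differences at the other times ran from -0.62 to -0.17. Rpa1 was 0.43 higher at 4 h, where the other times ran from 0.23 to 0.28.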

How the results depend on the processing

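The fall of the members under LPS kept its count of calls within 1.5 times under every alternative run for the 5 comparisons with unstimulated cells. Leaving out 1 array gave 19 to 25 called at 2 h, 26 to 29 at 4 h, 23 to 26 at 6 h, 22 to 24 at 12 h and 24 to 26 at 24 h. Leaving out an array or a time gave 5 to 9 for Cd14-deficient minus wild type (5 without all arrays at 4 h), 1 to 1 for EGTA minus wild type, 3 to 7 for Cd14-deficient minus EGTA (3 without the EGTA array at 12 h, that at 24 h or all arrays at 12 h), 11 to 17 for late minus early, 16 to 21 for 4 h minus 2 h, 1 to 5 for 12 h minus 6 h and 5 to 13 for 24 h minus 12 h. For the tests of differences in response it gave 0 to 1 (late minus early, Cd14-deficient; 1 without its array at 2 h), 0 to 0 (the same with EGTA), 0 to 0 (induction, Cd14-deficient) and 0 to 1 (induction, EGTA; 1 without the wild type array at 12 h). With no replicate block, that is without time or condition in the fit, the counts were 0 for each of the 3 condition comparisons, 9 for late minus early, 0 for 12 h minus 6 h and 5 for 24 h minus 12 h, since the spread between times or conditions then counts as error. Without further scaling 4 members were called for Cd14-deficient minus wild type, 1 higher and 3 lower. Averaging all probe sets of a gene gave 0 for EGTA minus wild type and 3 for 12 h minus 6 h. Without the EGTA arrays at 12 and 24 h the counts were 2 for Cd14-deficient minus EGTA, 3 for 12 h minus 6 h and 5 for 24 h minus 12 h. Median centring gave 2 for the EGTA induction, where all genes shifted by 0.33. Further shifts of the median of all genes reached -0.40 without scaling (4 h of LPS) and -0.17 (Cd14-deficient minus EGTA), so single directions are relative to that median. The members' lower and higher calls at 2 h were 18 and 2 with median centring and 26 and 1 without scaling, while the share of all called genes that was higher moved from 39.6% to 70.2% and 17.3%. Over all members and comparisons, 13352 values were recomputed. Among them 483 changed sign without a call on either side and 4 reversed with one, all on averaging probe sets: Fen1 to -0.04 (late minus early, adjusted p = 0.529), -0.58 (4 h, 0.00026) and -0.77 (24 h, 2.56e-05), and E2f1 to 0.38 (12 h minus 6 h, 0.0197). For Fen1 the 2 probe sets disagree. For E2f1 the second probe set stood at -0.68 at 6 h and 0.10 at 12 h against no LPS, and the used one at -0.22 and -0.23. Dim probe sets (Tk1, Tyms, Pola1, Pole, Cdc6, Chek1) limit what can be read.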
